A study of Mus musculus with 4 samples.

Results

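The peaks described here are the sites that were called with an HA antibody only in cells in which HA-tagged Fbxl10 had not been switched on, and that lie between genes. Mouse embryonic fibroblasts (MEFs) of a gain-of-function model for the histone demethylase Fbxl10 (also called Kdm2b) were used, and chromatin was precipitated with an HA antibody (ab9110) and sequenced (ChIP-seq). All libraries carry the same genotype, overexpressing HA-tagged Fbxl10. The induced cells had received doxycycline at 1 µg/ml for 48 hours and the non-induced cells had not, with 1 ChIP library and 1 input library labelled for each condition. The strain of the mice, the promoter behind the transgene and the amount of HA-Fbxl10 left in non-induced cells are not stated in the labels. The peaks were chosen by measured values, the calls and positions of both lists. A peak was taken when it overlapped no peak of the induced list by even 1 bp, when its midpoint lay outside every RefSeq gene of any kind, and when that midpoint was more than 1 kb from every gene start and end. This left 5652 peaks, which are 54.6% (exact 95% binomial interval 53.7 to 55.6) of the 10345 non-induced-only peaks and a part of the 16029 peaks of both lists together. In all, 5497 peaks were deposited for induced cells and 10532 for non-induced cells. Each condition has 1 list, so nothing here has a replicate check, no test was made, and every interval covers counting error only. Read totals are not in the lists, so the depth behind a peak is unknown.

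Fbxl10 carries a CxxC zinc finger that recognises unmethylated CpG-rich DNA, and it brings the Polycomb complex PRC1.1 to CpG islands, most of which lie at gene starts. DNA far from genes is by contrast mostly poor in CpG, rich in repeats, and dotted with enhancers that are active in some cell types. Long stretches without coding genes, often called gene deserts, tend to flank genes of development and of the nervous system. These are textbook facts and no result of these lists, and the sequence under the peaks was not analysed here.

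Of the non-induced-only peaks outside this class, 4477 lay inside genes and 216 lay outside genes within 1 kb of a gene. Under the same rule the induced list gave 973 induced-only peaks between genes, or 18.3% (17.3 to 19.4) of its 5312 induced-only peaks. Non-induced-only peaks between genes were thus 5.81 times as many. On the 19 autosomes their density was 4.70 peaks per Mb of space more than 1 kb from any gene, which was above the 3.75 per Mb (3.64 to 3.86) of non-induced-only peaks inside genes. For induced-only peaks the order was the other way round, with 0.808 per Mb between genes (0.758 to 0.861) and 3.08 per Mb inside genes (2.98 to 3.18).

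Peaks between genes were weak and narrow. The score, a value that the authors' peak caller wrote for each peak by a formula that no label states, started at 50.01, had a median of 59.8 and lay between 50.5 and 91.3 for the middle 90% of peaks. A score under 55 was held by 1725 peaks (30.5%, 29.3 to 31.7), and a score of at least 100 by 159 (2.81%, 2.40 to 3.28). The other non-induced-only peaks had nearly the same scores, with a median of 60.4 and 158 of 4693 (3.37%, 2.87 to 3.92) at 100 or more, and these intervals overlap. Of the induced-only peaks between genes 71 of 973 (7.30%, 5.74 to 9.12) reached 100, although their median of 57.7 was not higher. Whether scores of the 2 lists share a scale was not tested. Many peaks had exactly equal scores: the 5652 peaks held 1661 distinct values, and the commonest, 50.06, stood at 67 peaks.

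**Figure D1:**
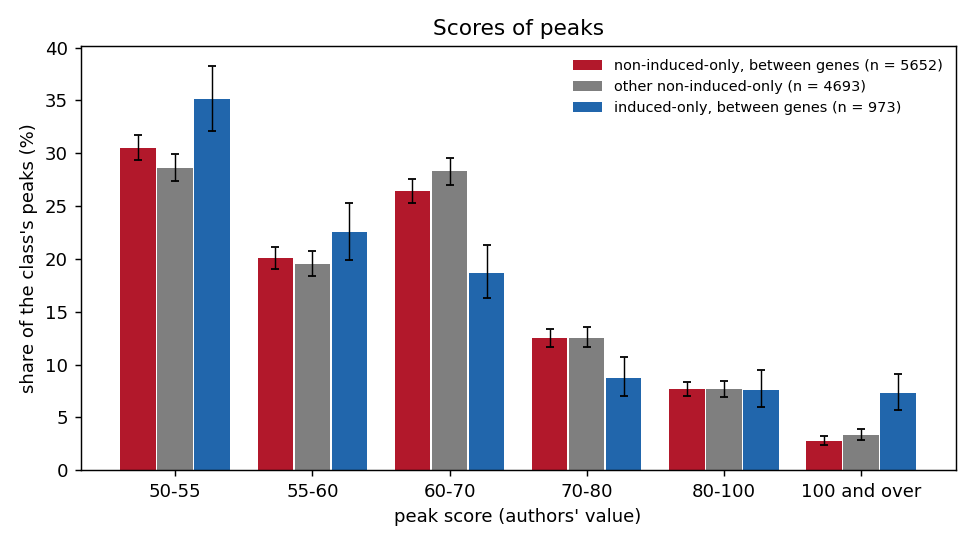
Share of peaks (%) in each class of score for non-induced-only peaks between genes, the other non-induced-only peaks and induced-only peaks between genes; bars are shares and error bars exact 95% binomial intervals. The share at 100 or more was 2.81%, 3.37% and 7.30% in this order.

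Widths were tightly bunched. The median was 585 bp, the middle 50% of peaks lay between 555 and 616 bp, and 46 peaks (0.814%) were 1 kb or wider. The other non-induced-only peaks had a median of 586 bp. Induced-only peaks between genes were wider, with a median of 648 bp, and 87 of 973 (8.94%) were 1 kb or wider. The correlation of score with width across the 5652 peaks was 0.10 by Spearman and 0.41 by Pearson. It was 0.12 and 0.40 across the 4693 other non-induced-only peaks, and 0.48 and 0.68 across the 973 induced-only peaks between genes. These are descriptions across peaks that share a library, and peaks are not replicates. Score did not run one way with width: 2547 peaks of 550 to 600 bp had a median score of 53.8, whereas 397 peaks under 500 bp had a median of 68.6 and the 46 widest peaks one of 105.

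The 10 peaks of highest score ran from 173 to 890, and several lay in clusters of duplicated genes. The highest, with a score of 890 and a width of 3746 bp, was on chromosome Y (mm10, 90737305 to 90741050), 3.55 kb from the predicted coding gene Gm52481 and 1.77 kb from an induced peak that it did not overlap. The second had a score of 367 and lay on chromosome 5 (15640645 to 15647031) between the transcribed pseudogene 4930572O03Rik at 8.45 kb and Speer4d, a member of the testis-expressed Speer family, at 19.97 kb. With 6387 bp it was also the second widest of all.

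Distal chromosome 4 held the third and the fifth. The third (score 216, chromosome 4, 147404475 to 147406394) was 6.29 kb from the long noncoding RNA gene Gm46898 and 13.4 kb from the zinc finger gene Zfp978. The fifth (score 190, 147419197 to 147426609) was the widest peak between genes at 7413 bp, and Zfp982 was its nearest coding gene at 20.2 kb. Both lay within 10 kb of an induced peak, at 5.89 and 9.97 kb. The third widest peak, of 6281 bp with a score of 104, was again on chromosome 5 (15459514 to 15465794), 9.05 kb from the predicted gene Gm21149.

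The fourth (score 213, chromosome 6, 147236473 to 147237243) was 5.36 kb from the long noncoding RNA gene Gm15767 and 15.3 kb from Pthlh, which encodes the parathyroid hormone-related protein of cartilage and bone growth. The sixth (score 185, chromosome 4, 51613448 to 51614454) was 363 kb from Cylc2, a gene of the sperm head, and the nearest induced peak was 825 kb away. The seventh (score 181) was on chromosome Y, 62.7 kb from Gm21379. The eighth (score 175, chromosome 3, 92230513 to 92231985) was 8.76 kb from Sprr2a1, a gene of the cornified skin envelope. The ninth (score 175, chromosome 7, 14451586 to 14451846) was the narrowest peak of the class at 261 bp, 4.94 kb from the sulfotransferase gene Sult2a8. The tenth (score 173, chromosome 10, 37909914 to 37911343) was 772 kb from Marcks, which encodes a substrate of protein kinase C at the membrane. Only 4 of the 5652 peaks reached a score of 200.

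Distances of these peaks to the nearest gene ran from 1.001 to 715 kb. The median distance to the nearest gene of any kind was 35.3 kb, and 384 peaks (6.79%, 6.15 to 7.48) were more than 200 kb from any gene. Counting protein-coding genes only, the median was 170 kb and 2620 peaks (46.4%, 45.0 to 47.7) were more than 200 kb away. Induced-only peaks between genes were much closer, with medians of 12.7 kb to any gene and 34.5 kb to a coding gene, and 191 of 973 (19.6%, 17.2 to 22.3) were more than 200 kb from a coding gene. Within 5 kb of a coding gene lay 298 (5.27%, 4.70 to 5.89) of the non-induced-only peaks between genes and 187 (19.2%, 16.8 to 21.8) of the induced-only peaks between genes. The rule sets the lower end of these distances at 1 kb in both lists. No distances for an even spread over the space between genes were computed.

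**Figure D2:**
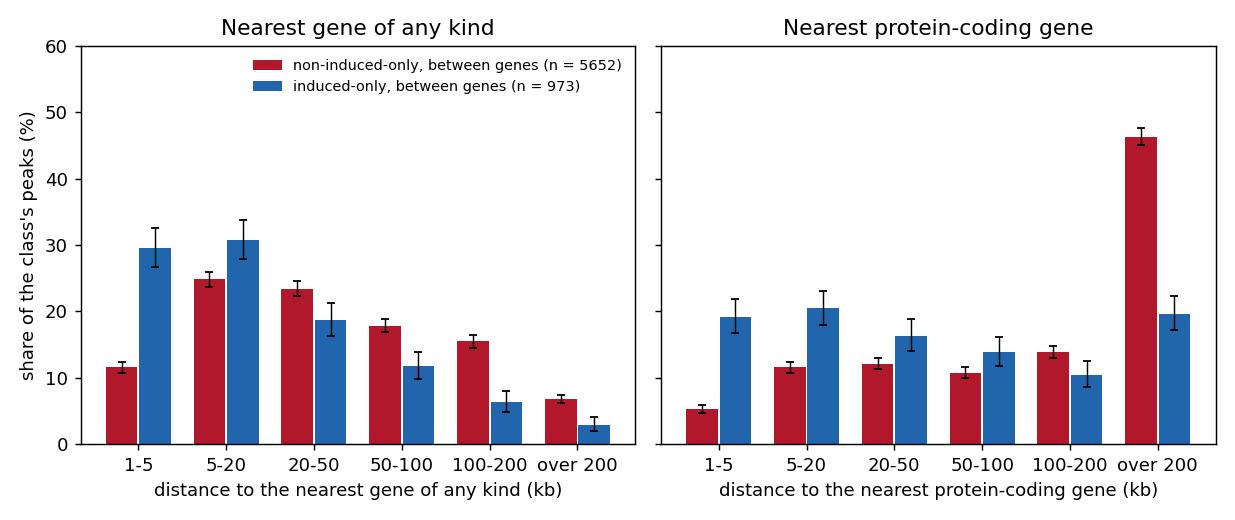
Share of peaks (%) by distance (kb) from the midpoint to the nearest gene of any kind and to the nearest protein-coding gene, for non-induced-only and induced-only peaks between genes; error bars are exact 95% binomial intervals. More than 200 kb from a coding gene lay 46.4% of the non-induced-only and 19.6% of the induced-only peaks.

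Scores and widths differed little between classes of distance. Peaks 1 to 5 kb from a gene had a median score of 59.4 and a median width of 586 bp, and peaks over 200 kb away had 60.6 and 576 bp. Across the 5652 peaks the Spearman correlation of score with distance was 0.01. Across the 973 induced-only peaks between genes it was -0.19. Among peaks that scored 100 or more, the median distance to a gene was 26.7 kb for the 159 non-induced-only and 3.87 kb for the 71 induced-only ones. The nearest gene was a pseudogene for 2061 peaks (36.5%), a long noncoding RNA for 1499 (26.5%) and a coding gene for 1405 (24.9%). A coding gene was nearest to 404 (41.5%) of the induced-only peaks between genes. Shares for evenly spread positions between genes were not computed.

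The 3 peaks farthest from any gene all lay in 1 desert on chromosome 4 downstream of Epha7, an Eph receptor of axon guidance. They were 715 kb (29949471 to 29950173, score 56.4), 669 kb (29995399 to 29995895, score 63.6) and 648 kb (29843668 to 29844221, score 55.4) from the nearest gene. Even there an induced peak was close to 1 of them, 308 bp from the second.

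Where the nearest coding gene had a strand in the RefSeq promoter table (4340 peaks), 2311 (53.2%, 51.8 to 54.7) lay on its start side. For induced-only peaks between genes the share was 57.1% (53.5 to 60.7). Within 100 kb of the coding gene the shares were 52.7% (50.3 to 55.1) and 58.8% (54.5 to 63.1), and within 20 kb, with fewer peaks, 52.9% (49.2 to 56.5) and 63.9% (58.0 to 69.4).

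The density of the peaks was higher in longer gaps between genes, up to a limit. On the autosomes it was 3.30 per Mb (3.11 to 3.51) in gaps under 50 kb, 4.44 (4.25 to 4.65) in gaps of 50 to 200 kb and 6.22 (5.98 to 6.47) in gaps of 200 kb to 1 Mb. In gaps of 1 Mb and over it was 3.24 (2.69 to 3.86), from 124 peaks, and of the 28 such gaps on all chromosomes 13 held a peak. Space that is missing from the assembly or that reads cannot be mapped to was not taken out of these lengths, and its part in the low value was not tested. Induced-only peaks between genes ran the other way, with 1.25 (1.13 to 1.38), 0.832 (0.749 to 0.922), 0.501 (0.434 to 0.575) and 0.130 (0.0424 to 0.304) per Mb in the same 4 classes.

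**Figure D3:**
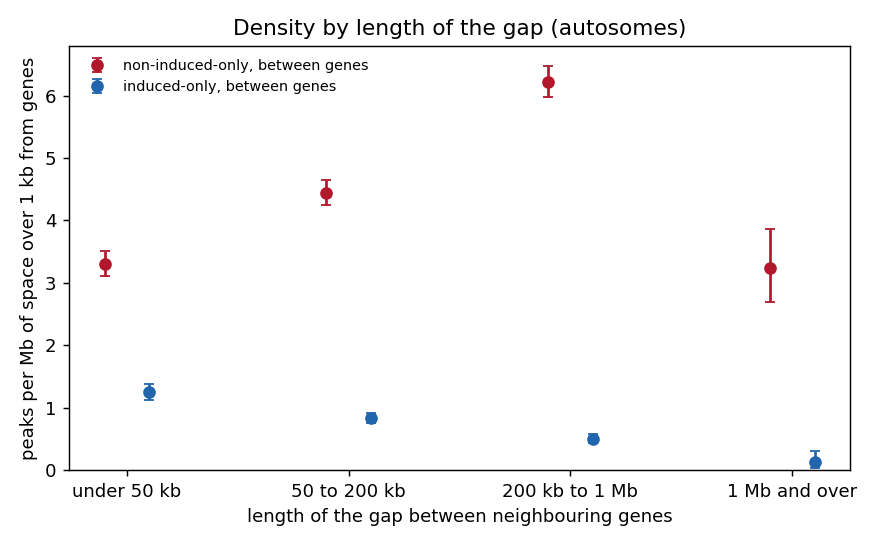
Peaks per Mb of autosomal space more than 1 kb from any gene, by the length of the gap between neighbouring genes, for non-induced-only and induced-only peaks between genes; points are densities and bars exact 95% Poisson intervals. Non-induced-only peaks were densest, at 6.22 per Mb, in gaps of 200 kb to 1 Mb, where induced-only peaks stood at 0.501 per Mb.

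Inside a long gap the peaks had no preferred place. In gaps of at least 200 kb 2631 peaks were found, and the outermost 10% of the gap on each side together held 501 of them (19.0%, 17.6 to 20.6), while the innermost part of the same length held 534 (20.3%, 18.8 to 21.9). An even spread gives 20% of peaks to each such part.

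Chromosomes differed in density after their space between genes was taken into account. Among autosomes it ran between 2.69 per Mb on chromosome 7 (184 peaks, 2.32 to 3.11) and 6.22 on chromosome 16 (313 peaks, 5.55 to 6.95), with 6.18 on chromosome 3 (565 peaks, 5.68 to 6.71). Chromosome 7 has the most coding genes per Mb of all autosomes (14.0) and chromosome 11 (13.2) had 3.65 peaks per Mb, the second lowest density. Chromosome 12, with the fewest coding genes per Mb among autosomes (5.66), had a density of only 3.97. Median scores hardly varied, between 57.8 and 61.9 on the autosomes.

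Chromosome X had 27 peaks, or 0.239 per Mb (0.157 to 0.348), and chromosome Y 13, or 0.150 per Mb (0.0798 to 0.256). The density on X was 19.7 times lower than on the autosomes. Induced-only peaks between genes were also rare on both, with 3 on X (0.0265 per Mb, 0.00547 to 0.0776) and 6 on Y (0.0691 per Mb, 0.0254 to 0.150). Depth and mappable length of these chromosomes are not in the lists, and their part in the low counts was not tested.

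**Figure D4:**
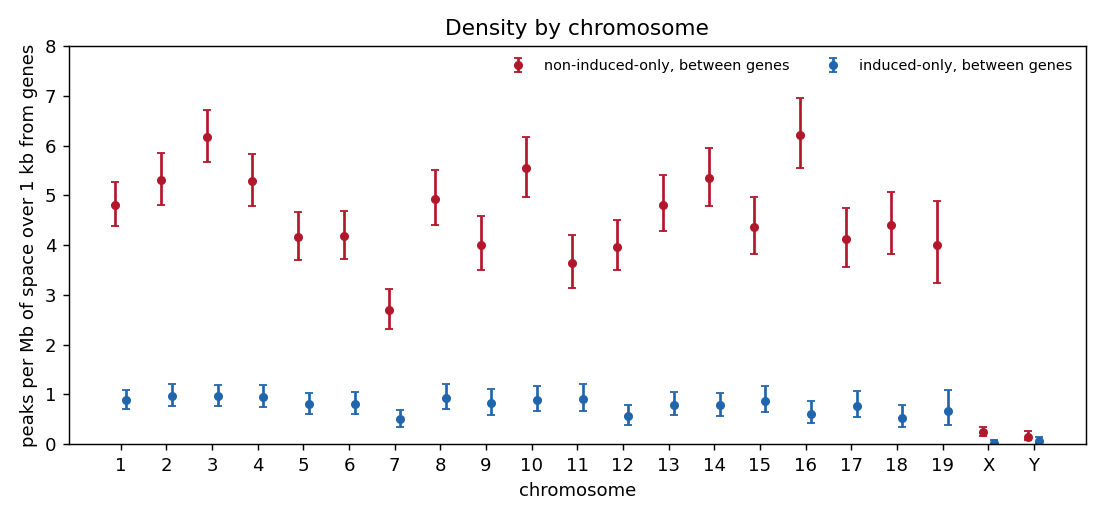
Peaks per Mb of space more than 1 kb from any gene on each chromosome, for non-induced-only and induced-only peaks between genes; points are densities and bars exact 95% Poisson intervals. Chromosome 16 was highest at 6.22 and chromosome 7 lowest among autosomes at 2.69 non-induced-only peaks per Mb, and X and Y stood at 0.239 and 0.150.

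The spacing of the peaks was described by their neighbours. Another peak of the class lay within 10 kb of 762 peaks (13.5%, 12.6 to 14.4) and within 100 kb of 3467 (61.3%, 60.1 to 62.6). Among the 2487 peaks left when both lists began at their joint median score, 6.67% had such a neighbour within 10 kb. For induced-only peaks between genes, which are far fewer, these shares were 7.09% (5.56 to 8.89) and 20.8% (18.3 to 23.4). A denser list has closer neighbours for that reason alone, so the shares cannot be compared as clustering, and no value for an even spread was computed. Joined over gaps of up to 10 kb the 5652 peaks formed 5251 runs, of which 4890 were single peaks, 329 pairs and 32 runs of 3 or more, with at most 4 peaks in a run.

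Of the runs with 4 peaks, the 3 with the highest scores lay on chromosomes Y, X and 16. The run on chromosome Y (90736639 to 90749184) had scores of 61.7 to 890 and lay on both sides of Gm52481, the closest midpoint 2.01 kb from it. The run on chromosome X (126764528 to 126776050) had scores of 56.5 to 169 and came within 37.3 kb of the predicted gene 4932411N23Rik. The run at the start of the annotated part of chromosome 16 (3246054 to 3267569) had scores of 51.9 to 127 and came within 326 kb of the olfactory receptor gene Olfr161. Scores of at least 100 were held by 8 of 104 peaks in runs of 3 or more (7.69%, 3.38 to 14.6), 26 of 658 in pairs (3.95%, 2.60 to 5.74) and 125 of 4890 single peaks (2.56%, 2.13 to 3.04). The medians were alike, at 59.2, 59.8 and 59.9. The intervals count each peak as separate, although the peaks of a run share a locus. The runs on chromosomes Y, X and 16 described above were picked for their highest scores, a choice that by itself favours scores of at least 100. In the other runs with 4 peaks the highest score ran between 62.7 and 115.

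Of 2714 bins of 1 Mb between the first and the last gene of each chromosome, 72 held 10 or more peaks, and these 2.65% of bins held 842 peaks (14.9%). No coding gene reached into 40 of the 72 bins (55.6%), against 252 of all 2714 bins (9.29%), and 31 of the 72 (43.1%) had no induced peak, against 944 of all bins (34.8%). The bins were picked for their number of peaks, so these shares are a description. The fullest was the bin of 46 to 47 Mb on chromosome 3 with 18 peaks, scores up to 81.9, and Pabpc4l as its one coding gene. The bin of 61 to 62 Mb on chromosome 16, beyond Epha6, had 17 peaks and no coding gene. Joined over gaps of up to 100 kb, a distance looked at after the values were known, the largest group was on chromosome 16 (60840530 to 61414569), with 21 peaks over 0.574 Mb and scores of 50.2 to 121, nearest to Epha6.

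Many peaks shared their nearest coding gene. Of 21887 coding genes, 2225 (10.2%) were the nearest coding gene of at least 1 peak, and 826 (3.77%) were that of at least 1 induced-only peak between genes. Among the 2225, 1323 were nearest to a single peak, and 96 genes with 10 or more each took 1443 peaks (25.5%).

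The 5 genes nearest to most peaks took 165 of them. Pcdh9, a protocadherin gene on chromosome 14 (93013700 to 93892834), was nearest to 40 peaks with scores of 50.3 to 102, at 1.56 to 2220 kb with a median of 501 kb. Of these 28 lay below and 12 above the gene in coordinates. Pcdh7, another protocadherin gene, on chromosome 5 (57716145 to 58133236), had 32 peaks at a median of 1108 kb and scores of at most 91.7. The protocadherins are cell adhesion molecules of the cadherin family.

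Epha7 on chromosome 4 (28813066 to 28967503) had 32 peaks at a median of 712 kb, with scores of 50.4 to 107. Flrt2, which encodes a transmembrane ligand of Unc5 guidance receptors, had 28 peaks around its locus on chromosome 12 (95692006 to 95785215), with scores of at most 93.4 and a median distance of 712 kb. Pabpc4l, a gene of the cytoplasmic poly(A)-binding protein family on chromosome 3 (46440854 to 46447989), had 33 peaks with scores of 50.8 to 84.7, of which 28 lay above and 5 below it in coordinates. Induced-only peaks between genes were nearest to the same 5 genes in 2 (Pcdh9), 2 (Pcdh7), 4 (Epha7), 1 (Flrt2) and 2 (Pabpc4l) cases. A gene beside a desert is nearest to many positions, and the parts of gap length and of density in these numbers were not tested.

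Lists of related genes were described by a peak of the class within 100 kb of the gene, which held for 4236 of 21887 coding genes (19.4%), and for induced-only peaks between genes for 1865 (8.52%). Neighbouring genes share peaks and genes differ in the space around them. Beside each share stands therefore the density of different peaks per Mb of autosomal space more than 1 kb from any gene and within 100 kb of the list's genes. Around all coding genes it was 3.73 per Mb (3.57 to 3.88) for non-induced-only and 1.13 (1.05 to 1.22) for induced-only peaks. The lists were not tested.

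Genes of synaptic adhesion, whose products join nerve cells across the cleft, had the highest density after the Hox genes. Of 51 such genes 21 (41.2%, 27.6 to 55.8) had a peak within 100 kb, and 39 peaks gave 6.04 per Mb (4.29 to 8.25), an interval above the value for all coding genes. Closest were the peaks at the contactin gene Cntn3 (1.46 kb, score 61.8) and at Csmd3, a large gene of the brain (2.92 kb, score 50.7). Axon guidance genes had 22 of 73 (30.1%, 19.9 to 42.0) and 5.80 per Mb (4.11 to 7.96). Among them were Sema3c, a secreted semaphorin, with a peak at 5.75 kb (score 66.9), and the ephrin ligand gene Efnb2 with one at 6.76 kb (score 60.6). Induced-only peaks stood at 0.464 per Mb (0.0958 to 1.36) around synaptic adhesion genes and 1.68 (0.838 to 3.01) around axon guidance genes. For non-induced-only peaks both lists' intervals held 4.70 per Mb, the density in all autosomal space more than 1 kb from genes. They also held the 6.22 per Mb of gaps of 200 kb to 1 Mb. The part of gap length in the density around these genes was not tested.

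For the other lists of nervous system genes the interval of the density held the value around all coding genes. Cadherin and protocadherin genes had 13 of 97 (13.4%, 7.33 to 21.8) with a peak within 100 kb and 5.09 per Mb (3.23 to 7.64), with Pcdh9 and Cdh19 (6.22 kb, score 52.4) closest. Receptors for glutamate and GABA had 15 of 42 (35.7%, 21.6 to 52.0), a share above that of all coding genes, and 4.87 per Mb (2.98 to 7.53), among them Grm8 with a peak at 23.6 kb (score 54.8). Potassium channel genes had 17 of 94 (18.1%, 10.9 to 27.4) and 2.96 per Mb (1.86 to 4.49), with Kcna4 (2.18 kb, score 56.5) and Kcnb2 (3.12 kb, score 70.3) closest.

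Olfactory receptor genes, the odour-sensing genes of the nose that lie in large arrays, had a peak within 100 kb in 532 of 1110 cases (47.9%, 45.0 to 50.9). The share was 25.05% for peaks more than 5 kb from every gene and 21.9% at scores from the joint median of the lists upward. Only 115 different peaks stood behind the autosomal ones among them, and the density of 4.26 per Mb (3.52 to 5.12) was near that of all coding genes. Olfr441 (1.01 kb, score 51.8) and Olfr1209 (1.01 kb, score 65.6) had the closest peaks. Induced-only peaks were sparse there, at 0.371 per Mb (0.178 to 0.682). Vomeronasal receptor genes, which serve pheromone sensing, had 111 of 355 (31.3%, 26.5 to 36.4), yet a density of 2.60 per Mb (1.90 to 3.46), below that of all coding genes, with Vmn1r172 (1.05 kb, score 70.5) and Vmn2r90 (1.34 kb, score 57.6) closest. Zinc finger genes of the Zfp series had 91 of 397 (22.9%, 18.9 to 27.4) and 3.54 per Mb (2.79 to 4.44), with Zfp936 (1.497 kb, score 51.8) and Zfp451 (2.14 kb, score 53.5) closest.

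**Figure D5:**
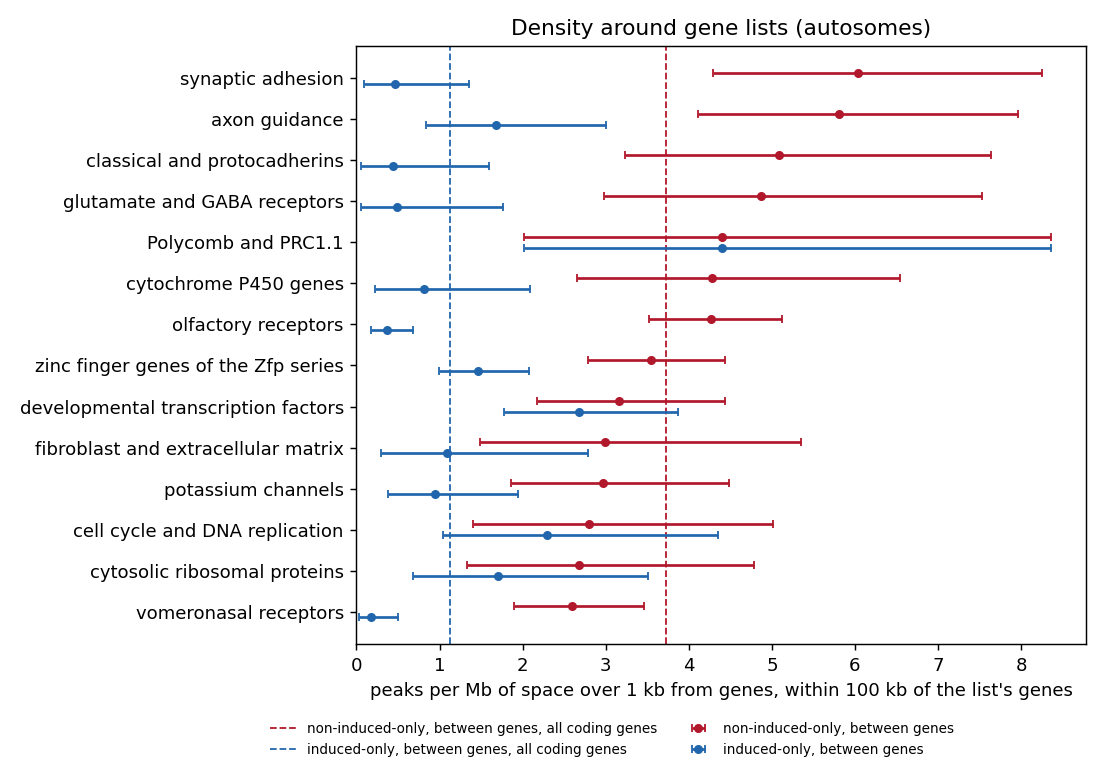
Peaks per Mb of autosomal space more than 1 kb from any gene and within 100 kb of the genes of each list, for non-induced-only and induced-only peaks between genes; points are densities, bars exact 95% Poisson intervals and dashed lines the values around all coding genes (3.73 and 1.13). Hox genes (6.47, 1.76 to 16.6, and 14.6, 6.66 to 27.6) are left out of the plot for their wide intervals.

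Around developmental genes peaks of both lists were found. Of 39 Hox genes, the body axis regulators, 19 (48.7%, 32.4 to 65.2) had a non-induced-only peak between genes within 100 kb, and all 39 had an induced-only one. The non-induced-only count rested on 4 different peaks and the induced-only count on 9. Of 96 other developmental transcription factor genes 26 (27.1%, 18.5 to 37.1) had a non-induced-only and 24 an induced-only peak. Their densities were 3.16 (2.17 to 4.43) and 2.68 (1.78 to 3.87) per Mb, the first near and the second above the value around all coding genes. Alx1, a homeobox gene of the facial skeleton, had the strongest of the closest peaks (4.35 kb, score 98.4), and Pax1, of the vertebral column, one at 5.59 kb (score 51.2).

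For lists of fibroblast genes, of general cell functions and of cytochrome P450 enzymes the interval of the density held the value around all coding genes. These intervals were wide. Fibroblast and matrix genes had 9 of 44 (20.5%, 9.80 to 35.3) and 2.99 per Mb (1.49 to 5.35), among them Lox, a collagen cross-linking enzyme (5.50 kb, score 51.1), and Col3a1, collagen III (6.64 kb, score 82.5). Polycomb genes had 6 of 33 (18.2%, 6.98 to 35.5) and 4.40 per Mb (2.01 to 8.36), with Pcgf5 (3.38 kb, score 52.1) and Yaf2 (10.7 kb, score 76.5) closest. Cytochrome P450 genes had 22 of 99 (22.2%, 14.5 to 31.7) and 4.28 per Mb (2.65 to 6.54), with Cyp2e1 (11.3 kb, score 51.8) and Cyp1b1 (11.5 kb, score 85.8) closest. Cell cycle genes had 11 of 62 (17.7%, 9.20 to 29.5) and 2.80 per Mb (1.40 to 5.01), with the origin recognition gene Orc5 (4.54 kb, score 65.3) and the mitotic cyclin gene Ccnb1 (15.0 kb, score 54.2) closest. Cytosolic ribosomal protein genes had 11 of 81 (13.6%, 6.98 to 23.0) and 2.67 per Mb (1.34 to 4.79), with Rps20 (1.76 kb, score 72.9) and Rps16 (7.61 kb, score 57.3) closest.

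The rule asks for no overlap with an induced peak, so the gaps to induced peaks are a description only. The median gap to the nearest induced peak was 334 kb for non-induced-only peaks between genes and 199 kb for those inside genes. Within 10 kb of an induced peak lay 185 (3.27%, 2.82 to 3.77) of the peaks between genes and 269 of 4477 (6.01%, 5.33 to 6.74) of those inside genes. Within 100 kb the numbers were 1201 (21.2%, 20.2 to 22.3) and 1454 (32.5%, 31.1 to 33.9). Of the induced-only peaks 61.1% lay inside coding genes, and the part of the rule on distance from genes in these gaps was not tested. No gap for an even spread was computed. Over the whole non-induced list 10345 of 10532 peaks overlapped no induced peak, and inside genes 100 of 4577 (2.18%) did overlap one. The rule leaves out 72 non-induced peaks between genes that did overlap an induced peak, 1.26% (0.985 to 1.58) of 5724. Their median score of 109 and median width of 1024 bp were above the 59.8 and 585 bp of the peaks kept, as a description of what the rule removes.

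Just inside the limit of the overlap rule were peaks on chromosome 16 (3255738 to 3256822, score 76.9), chromosome 6 (19864608 to 19865197, score 50.8) and chromosome 9 (85815943 to 85816921, score 106), which missed an induced peak by 11, 23 and 39 bp. The peak on chromosome 9 was 25.9 kb from Tpbg, the trophoblast glycoprotein gene, the one on chromosome 6 was 985 kb from Ankrd7, and the one on chromosome 16 belonged to the run of 4 peaks there. Just inside the limit of 1 kb to genes were peaks 1001 bp from the pseudogene Vmn2r-ps20 (score 104), 1006 bp from Olfr441 (51.8) and 1008 bp from the small nuclear RNA gene Gm24817 (50.8), with Zfp982, Olfr441 and Apcs as nearest coding genes. Just outside it were peaks 992 bp from Tmem167 (score 62.6), 989 bp from the pseudogene Rpl21-ps4 (58.5) and 986 bp from Olfr937 (51.03). The nearest coding genes of these were Tmem167, Fhit and Olfr937. No peak of the class touched a gene with any base, and 59 had an edge within 1 kb of one.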

How the data were processed

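Per the submitters' processing notes, reads were aligned with Bowtie2 to mm10. The peak names show MACS as the caller; no source used here gives its version, threshold, use of input or pooling. The deposited score of each peak is the authors' value and was used only to describe and rank peaks; in 1 alternative both lists were cut at their joint median. Each list was assigned to its library by the mark w or wo in the list's name and the W or W/O of the title, read as with and without doxycycline, and the protocol's mention of independent samples could not be matched to the lists.

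Genes came from a RefSeq table of GRCm38.p6, on the same coordinates as mm10 (49980 placed genes, 21900 of them coding, 21887 without the mitochondrial ones). Strand came from a RefSeq promoter table. Distances run from the peak's midpoint to the nearest gene end. Space between genes excludes 1 kb beside each gene, and assembly gaps were not removed. Intervals are exact at 95%, Clopper-Pearson for shares and Poisson for densities. With 1 list per condition no test was made. Members, gene lists and the rule for named peaks were chosen with earlier results of these data known. The named ones are the 10 highest scores, the 3 widest, farthest, densest and nearest to each limit, their nearest coding genes, the 5 genes with most peaks and 2 genes per list; a few of these genes are not reported here. Functions were tested on simulated data and against bedtools 2.31.1. Scripts ran in Python 3.11.15 with SciPy 1.17.1, pandas 2.3.3, numpy 2.4.6 and, for plots, matplotlib 3.10.9. No genome sequence was used here, so base composition and repeats were not analysed here.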

Additional observations from a re-analysis of the deposited data

How the results depend on the processing

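The number of peaks, their share of non-induced-only peaks, the medians of score, width and distance, and the share with a neighbour within 10 kb were recomputed under 9 alternatives, and 40 of the 54 values stayed within 1.5 times the count or within the interval of the reported value. Asking for an overlap of 50% of the shorter peak, counting a gap of 1 kb as shared, asking for the whole peak to be clear of genes, and leaving out Y and the mitochondrial genome moved none of them. When both lists were cut at their joint median score (61.6) 2487 peaks were left, 53.5% of the non-induced-only ones, with median score 70.6, raised by construction, width 595 bp, where the cause was not tested, and a neighbour within 10 kb for 6.67%. With no distance to genes asked for, the share was 56.7% and the median distance 32.6 kb; with more than 5 kb, 48.3% and 43.6 kb; with coding genes only, 63.2% and 158 kb; these follow from the limits themselves. Without the 72 bins of 1 Mb with 10 or more peaks, the share was 51.0%, the distance 30.9 kb and the neighbour share 11.9%. These bins were picked for their number of peaks, a choice that by itself favours lower shares. The share of olfactory receptor genes with a peak within 100 kb, an alternative added after the data were seen, ran between 21.9% at the higher scores and 53.2% with no distance asked for, and was 25.05% at more than 5 kb. That of synaptic adhesion genes ran between 27.5% and 43.1%. No paired analysis was possible because each condition has 1 list. Without read counts the depth that limits weak peaks is unknown, and no list of replicates shows which of the scores near 50 would be called again.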
